A study of Arabidopsis thaliana with 12 samples.

Results

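The regions described here are 3' UTR peaks of N6-methyladenosine (m6A) whose single host gene was strongly expressed in wild-type Arabidopsis thaliana. They came from the authors' deposited table of peaks that differed between a dcl1 mutant and wild type. A peak was taken when its annotation was 3' UTR, when it overlapped exactly 1 gene of the deposited expression table by at least 1 base, and when that gene averaged at least 20 FPKM in the wild-type input libraries. FPKM are fragments scaled by gene length and by library total. The rule took 865 of the 3117 peaks (27.8%), lying in 860 host genes. Another 1524 3' UTR peaks had a single host below 20 FPKM (424 of them below 5 FPKM and 1100 between 5 and 20 FPKM), 517 overlapped more than 1 gene, and 211 peaks lay outside the 3' UTR.

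Col-0 wild type was compared with a dcl1 mutant in the same ecotype, with 3 input (RNA-seq) and 3 m6A immunoprecipitation libraries per genotype. The plants were untreated and 20 days old by the labels. All were grown with 16 h of light and 8 h of dark. The labels call the material leaf, while the protocol and the design text speak of seedlings at a 3-week stage, and the dcl1 allele is not named. Poly(A) RNA was used in both assays, so transcripts without a tail were not measured. Because RNA came from whole tissue, fewer cells of a type and less RNA per cell cannot be told apart in any expression value below.

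m6A is a methyl group placed on adenosines of messenger RNA, in plants mainly near the stop codon and in the 3' UTR. A nuclear writer complex built around the methyltransferases MTA and MTB installs it, ALKBH demethylases remove it, and proteins with a YTH domain (the ECT family) bind it and affect the stability and processing of the transcript. DCL1 is the Dicer-like enzyme that cuts microRNAs from their primary transcripts. In MeRIP-seq, RNA fragments are pulled down with an antibody against m6A, and a peak is a stretch where the pulled-down fragments pile up over the input.

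The immunoprecipitate was available only as the authors' own comparison, which gives each peak a log2 change (dcl1 against wild type), a p-value and an FDR. A peak is called gained when that log2 change is above 0 and lost when it is below 0. These peak values have no error or n of their own here. The sources used here do not state the scaling of this log2 change, nor whether input was divided out. The largest p-value in the table was 0.049, so it holds only peaks that passed a threshold of 0.05 in the authors' test. The change of each peak was thus part of how the peaks were chosen, and counts of gains and losses are descriptions without a test.

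The input libraries matched their labels at the mutated gene. DCL1 stood at 5.08, 4.53 and 6.0 FPKM in wild type and at 0.604, 0.406 and 0.632 FPKM in dcl1, with no overlap (log2 change -2.00 ± 0.12 SE, limma adjusted p = 1.1e-04). The summed level of 5 leaf genes was 37740 to 43494 FPKM in wild type and 37305 to 38592 FPKM in dcl1, while 4 seed genes summed to at most 1.16 FPKM in any library. Within the leaf sum RCA, RBCS1B (4688 to 2645 FPKM) and CA1 fell and CAB1 rose (11675 to 15024 FPKM) by the limma test. The sum of 5 root genes was 20.7 to 23.1 FPKM in wild type and 17.1 to 19.3 FPKM in dcl1. Nearly all of that sum came from SHR (means of 10.2 and 8.59 FPKM) and SCR (11.2 and 9.26 FPKM). Neither gene passed the limma test (adjusted p = 0.18 and 0.061). The root genes IRT1, CASP1 and PLT2 were at most 0.422 FPKM in any library. For 4 flower genes the sum was 9.11 to 9.57 FPKM in wild type and 12.2 to 16.5 FPKM in dcl1, and for 3 meristem genes 14.8 to 19.2 FPKM and 21.4 to 22.9 FPKM. The flower genes AP3 (2.09 to 4.14 FPKM) and PI (3.04 to 4.84 FPKM) and the meristem gene STM (17.4 to 22.1 FPKM) rose. None of these marker genes was 0 in all libraries, none hosts a peak of the set, and their part in the results was not tested. FPKM give no sequencing depth, so depth is unknown.

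Most of the 865 peaks lay close to the end of their host. The distance from the peak centre to the host's 3' end had a median of 227.5 bases (29.5 to 1658.5 bases), and 616 peaks (71.2%) were centred within 300 bases of it. Measured along the gene, 765 centres (88.4%) lay at 75% of the host's length or beyond, and 6 lay in the first 50%. Peak width had a median of 431 bases and ranged from 61 to 1730 bases. A total of 379 peaks crossed the host's annotated end, many of them by very little. The share of a peak inside its host had a lower quartile of 99.8% over all 865 peaks and was at least 80.9%. Among the hosts named below, only peaks on the minus strand crossed the end. A difference in how peak and gene starts were counted would also give this, and it was not tested. The count of 379 is therefore not read as peaks running past the gene. Gained and lost peaks were centred at similar distances, with medians of 224 and 239 bases. The hosts of gained peaks were shorter (median 1866 bases against 2404 bases).

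**Figure D1:**
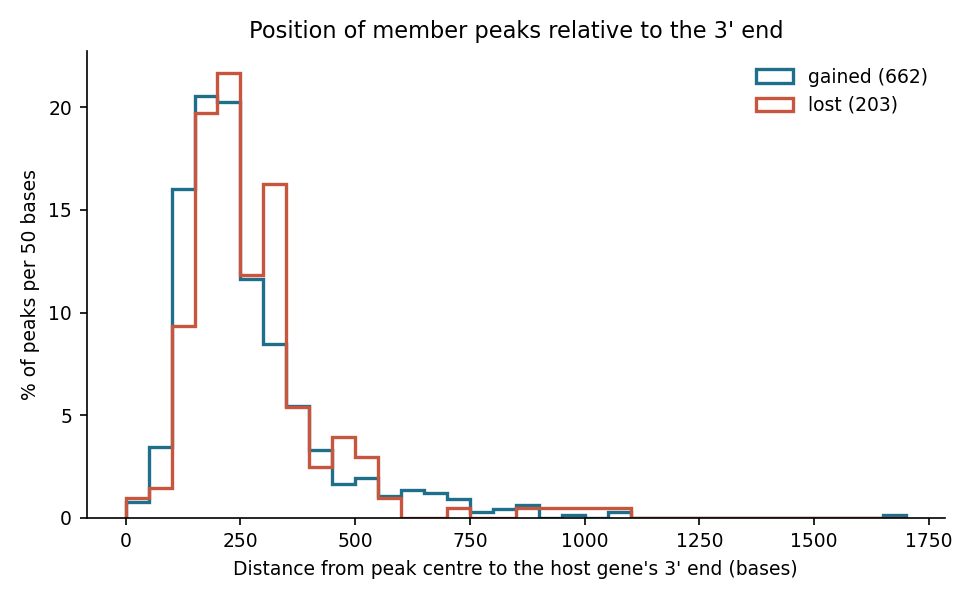
Distance in bases from the centre of each peak to the 3' end of its host gene (horizontal axis) against the percentage of peaks per 50 bases (vertical axis), for 662 gained and 203 lost peaks. Both outlines are highest between 100 and 350 bases, and most peaks of both kinds lie within 500 bases.

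In the authors' deposited table, 662 of the 865 peaks were gained in dcl1 and 203 were lost, or 76.5% gained. Over all 3117 peaks of that table the share gained was 60.3%, and over the 1524 peaks with a single weaker host it was 50.4%. The deposited FDR was under 0.05 for 811 of the 865 peaks (93.8%), against 79.6% of the whole table. The changes were small. The median gain was 0.22 on the log2 scale, a 1.16-fold ratio, and the median loss was -0.181, a ratio of 0.882, in the authors' deposited table. Only 38 peaks (4.39%) moved by at least 0.5 on that scale, and 4 by more than 1. The range ran from -1.36 to 1.07.

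The share of gained peaks was higher at each successive host level above 20 FPKM. It was 62.9% of 448 peaks with hosts of 20 to 50 FPKM, 83.8% of 167 peaks at 50 to 100 FPKM, 95.2% of 207 peaks at 100 to 500 FPKM, and 100% of 43 peaks at 500 FPKM or more. Below the threshold no such order was present. The share there was 53.3% of 580 peaks at 10 to 20 FPKM, 46.7% of 520 at 5 to 10 FPKM, 51.1% of 401 at 1 to 5 FPKM and 47.8% of 23 under 1 FPKM. When hosts were ordered by their dcl1 level in place of their wild-type level, the shares were 57.6%, 74.5%, 93.0% and 100% over the same 4 ranges from 20 FPKM up. The size of a gain did not follow the host level in the same way, since the median gain in the authors' deposited table was 0.22, 0.213, 0.215 and 0.282 over these ranges of wild-type level.

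The hosts nearest to the threshold of 20 FPKM had similar levels. The host just inside it was SPPA (AT1G73990), a signal peptide peptidase, at 20.3, 21.1 and 18.7 FPKM in wild type (mean 20.0033), and its peak was gained by 0.309 in the authors' deposited table. UCH2 (AT1G65650), at 19.5, 20.5 and 19.9 FPKM (mean 19.9683), lay just outside, with a gain of 0.211 in the same table. The smallest change present in the table also depended on the host level. It was 0.154 for hosts under 5 FPKM, 0.092 for hosts of 5 to 20 FPKM and 0.0468 in the set described here, in absolute log2 units of the authors' deposited table. Small changes were therefore listed only for the stronger hosts.

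**Figure D2:**
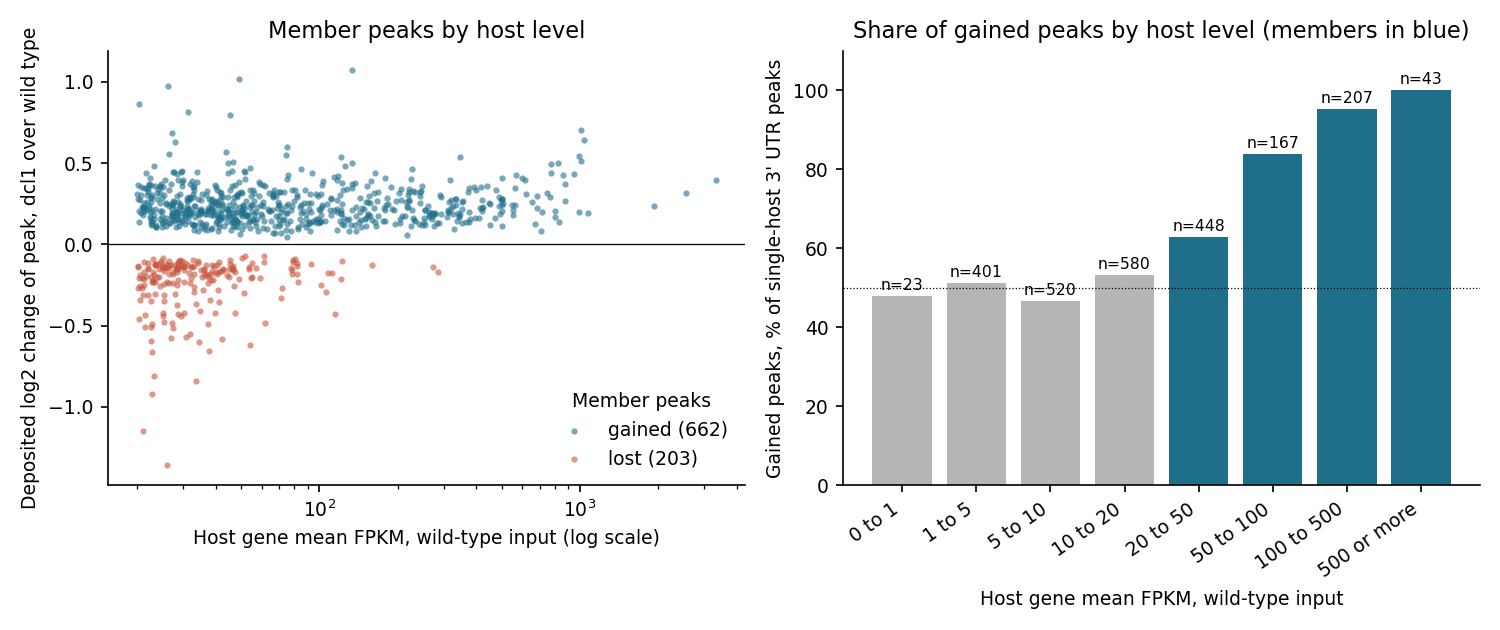
Left, log2 change of each of the 865 peaks in the authors' deposited table (dcl1 over wild type) against the mean FPKM of its host in the 3 wild-type input libraries, on a log axis. Right, percentage of single-host 3' UTR peaks that were gained in each range of host FPKM, with the number of peaks above each bar and a dotted line at 50%. The blue bars, at 20 FPKM and above, go from 62.9% to 100%, and the grey bars below 20 FPKM stay between 46.7% and 53.3%.

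Narrow peaks carried the larger changes among the peaks listed. Among 79 peaks under 200 bases wide, the median gain in the authors' deposited table was 0.344 and the median loss -0.457. Peaks of 1000 bases or more (54 peaks) had a median gain of 0.152 and a median loss of -0.138 there. The smallest absolute change listed also depended on width, at 0.158 under 200 bases and 0.0468 at 1000 bases or more. Small changes of the narrowest peaks were therefore not listed, and a relation of change to width beyond this was not tested. The share gained did not fall steadily with width, being 81.0%, 78.0%, 70.7% and 85.2% from the narrowest to the widest of 4 classes. It differed little among the 5 chromosomes (73.9% to 79.5%), and was 81.2% for hosts on the plus strand and 72.3% for hosts on the minus strand.

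Genes of photosynthesis and photorespiration were the 5 most strongly expressed hosts. LHCA1 (AT3G54890) and LHCA2 (AT3G61470) encode antenna proteins of photosystem I. LHCA1 was present at 3356, 3435 and 3177 FPKM in wild type and at 3625, 3389 and 3856 FPKM in dcl1. Its libraries overlapped and its expression did not pass the test (log2 change 0.12 ± 0.06 SE, limma adjusted p = 0.17, but 0.0211 under quantile normalization), while its peak (chromosome 3, 20339503 to 20339774) was gained by 0.398 in the authors' deposited table. LHCA2 stood at 2586, 2605 and 2470.1 FPKM in wild type and at 2711, 2490.0 and 2914 FPKM in dcl1, also without a call (adjusted p = 0.39), and its peak was gained by 0.316 in that table. Next came PSAL (AT4G12800), a subunit of photosystem I, which fell from 1917 ± 176 to 1594 ± 43.2 FPKM (SD, n = 3 each; log2 change -0.26, limma adjusted p = 0.034). That call ended when any single library except wild-type replicate 3 was left out (adjusted p = 0.0575 to 0.121), and under quantile normalization the change was -0.01. The PSAL peak was gained by 0.235 in the authors' deposited table.

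Both subunits of the chloroplast glyceraldehyde-3-phosphate dehydrogenase of the Calvin cycle hosted gained peaks. GAPA (AT3G26650) was at 1027, 1091 and 988 FPKM in wild type and at 978, 1137 and 911 FPKM in dcl1, which overlapped, and did not pass the expression test (log2 change -0.04 ± 0.09 SE, limma adjusted p = 0.74). Its peak (chromosome 3, 9796836 to 9796956) was gained by 0.643 in the authors' deposited table. GAPB (AT1G42970) carried a pair of separate peaks, of 179 and 61 bases, gained by 0.513 and 0.701 in the same table. GAPB expression was 1006 ± 87.3 FPKM in wild type and 834 ± 105 FPKM in dcl1 (SD, n = 3 each) and did not pass the test (limma adjusted p = 0.082, but 0.0468 without wild-type replicate 3 and 0.0256 without dcl1 replicate 2). SHM1 (AT4G37930), the mitochondrial serine hydroxymethyltransferase of photorespiration, did fall, from 1072, 1118 and 1017 FPKM to 789, 847 and 743 FPKM (log2 change -0.43 ± 0.07 SE, limma adjusted p = 0.0037). Its peak was gained by 0.193 in the authors' deposited table.

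The full photosynthesis list, by the Gene Ontology terms in the deposited expression table, held 31 peaks in 30 hosts with a median of 219 FPKM. Of these 31 peaks, 29 were gained in the authors' deposited table. The largest gain of the list was at LHCB4.3 (AT2G40100), an antenna protein of photosystem II (chromosome 2, 16747042 to 16747311), at 0.793. The 2 losses were at FER3 (AT3G56090), an iron-storing ferritin, by -0.37, and at AT1G80380, annotated as a nucleoside triphosphate hydrolase, by -0.124, in that table. Of the 30 hosts, 16 fell in expression, 2 rose and 12 did not pass the test. Among all 126 genes of the list at 20 FPKM or more, 51 fell and 6 rose.

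Genes of the translation apparatus were common among the hosts. Structural constituents of the ribosome hosted 86 peaks, of which 83 were gained in the authors' deposited table, with a median change of 0.199, beside 0.187 over all 865 peaks. These hosts had a median of 270 FPKM in wild type. The largest gains on that list were 0.394 at emb2171 (AT3G04400), of the ribosomal L14p/L23e family, and 0.389 at AT5G09510, of the S19 family, in the authors' deposited table. The largest losses were -0.24 at XW6 (AT1G58380), of the S5 family, and -0.229 at AT2G44065, of the L2 family, both hosts under 50 FPKM in wild type. Expression of the 86 hosts mostly did not pass the test, with 18 falls, 6 rises and 62 without a call, beside 53 falls and 13 rises among all 214 ribosomal genes at 20 FPKM or more. Ribosomal genes come in families of close copies, and how reads shared between copies were counted is not stated, so single family members are uncertain.

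Translation as a whole, including initiation and elongation factors, held 101 peaks with 94 gains in the authors' deposited table. Its largest gains were at AT5G60390 and AT1G07920, both encoding elongation factor 1-alpha. AT5G60390 was at 976, 1000.1 and 991 FPKM in wild type and 831, 811 and 800.0 FPKM in dcl1 and fell (log2 change -0.28 ± 0.05 SE, limma adjusted p = 0.0052). It carried a peak of 182 bases gained by 0.2 and a peak of 62 bases gained by 0.545 in the authors' deposited table. AT1G07920 fell as well (346 to 299 FPKM, limma adjusted p = 0.025, which lay at 0.0517 to 0.0863 without any single library except wild-type replicate 3 and dcl1 replicate 1), and its peak was gained by 0.539 in that table. These genes are near-identical copies, so the split of reads between them is uncertain.

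Host level and gene group could be set side by side. The ribosome, translation and photosynthesis lists together held 151 peaks, 93.4% of them gained in the authors' deposited table, against 73.0% of the other 714 peaks. Within hosts of 100 to 500 FPKM the shares were 98.9% of 89 and 92.4% of 118. Within 20 to 50 FPKM they were 72.0% of 25 and 62.4% of 423, within 50 to 100 FPKM 77.8% of 9 and 84.2% of 158, and at 500 FPKM or more 100% of 28 and 100% of 15. The share in the lists was above that of the other peaks in 2 of these 4 ranges, below it at 50 to 100 FPKM and equal to it in the strongest hosts.

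Beside the 76.5% gained over the whole set, gains in the authors' deposited table were counted in other lists as follows: cell wall (41 of 45), mRNA binding (143 of 167), response to cold (28 of 33), ubiquitin-dependent degradation (18 of 21), response to heat (12 of 14), response to light stimulus (16 of 19) and response to bacterium (19 of 25, or 76.0%, near the share of the whole set). In that order, the median host levels were 179, 218, 194, 42.8, 99.8, 143 and 75.2 FPKM in wild type. Host level thus differs between these lists and the whole set. The share gained in the set was 62.9% at 20 to 50 FPKM, 83.8% at 50 to 100 FPKM and 95.2% at 100 to 500 FPKM. PIP1B (AT2G45960), a plasma membrane aquaporin, fell from 502 to 345 FPKM (limma adjusted p = 0.010), and its peak was gained by 0.411 in that table. Among the regulators with gains were BES1 (AT1G19350), a transcription factor of brassinosteroid signalling, by 0.599, and EBP (AT3G16770), an ethylene response factor, by 0.538, in the same table. UBQ4 (AT5G20620), a polyubiquitin gene with close copies, had a gain of 0.686 there. None of BES1, EBP and UBQ4 passed the expression test (limma adjusted p = 0.28, 0.37 and 0.16). Under quantile normalization UBQ4 did pass, as a fall (log2 change -0.256, limma adjusted p = 0.042).

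RNA binding had 39 gains among 47 peaks, protein folding 16 of 20, response to oxidative stress 14 of 18, carbohydrate metabolism 12 of 15 and response to auxin 8 of 9 in the authors' deposited table. Their median host levels were 151, 81.5, 48.0, 45.1 and 49.2 FPKM in wild type. Circadian rhythm (4 of 6), proteolysis (5 of 6), water transport (3 of 3) and lipid metabolism (3 of 3) held few peaks. By compartment, 272 of 340 peaks in hosts annotated to the chloroplast were gained there, 232 of 317 to the nucleus, 290 of 360 to the cytosol, 170 of 218 to the plasma membrane and 152 of 188 to the mitochondrion. Of the 337 chloroplast hosts 126 fell and 29 rose, and of all 1632 chloroplast genes at 20 FPKM or more 552 fell and 145 rose. Of the 315 nuclear hosts 72 fell and 52 rose, and of all 1544 nuclear genes at 20 FPKM or more 285 fell and 279 rose.

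**Figure D3:**
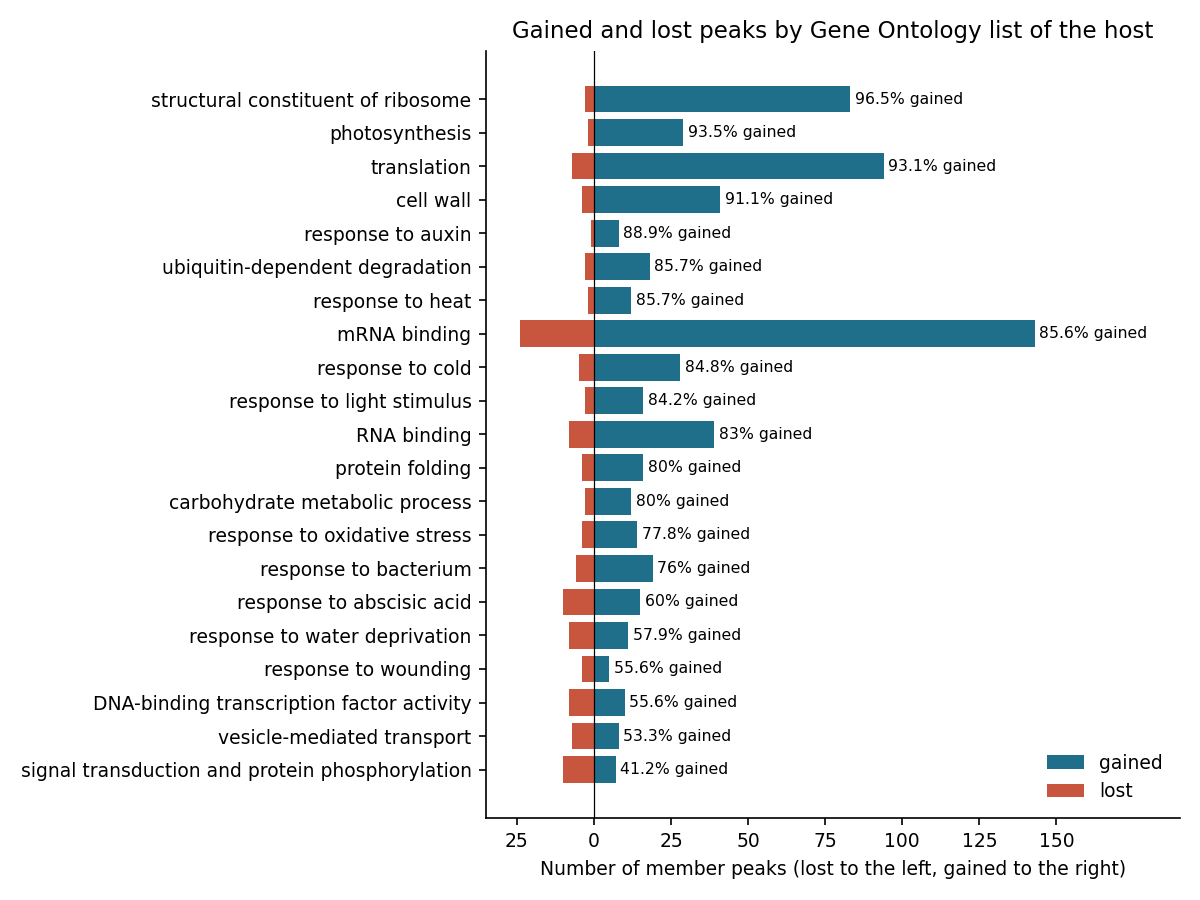
Number of gained (right, blue) and lost (left, red) peaks in the authors' deposited table for the hosts of each Gene Ontology list, with the percentage gained beside each bar and the lists ordered by it. A peak can count in more than 1 list, lists under 9 peaks and cell compartments are left out, and the order is a description. Ribosome, photosynthesis and translation stand at the top with 96.5%, 93.5% and 93.1%, and signal transduction with protein phosphorylation at the bottom with 41.2%.

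In 6 of the lists of at least 9 peaks, at most 60% of the peaks were gained, beside 76.5% over the whole set. The whole set covers all host levels. Its share gained was 62.9% at hosts of 20 to 50 FPKM and 83.8% at 50 to 100 FPKM. Signal transduction and protein phosphorylation held 17 peaks at a median host level of 30.9 FPKM, with 7 gains and 10 losses in the authors' deposited table. Vesicle-mediated transport had 8 gains and 7 losses, DNA-binding transcription factors 10 and 8, response to water deprivation 11 and 8, response to abscisic acid 15 and 10, and response to wounding 5 and 4. In that order, the median host levels of these lists were 37.7, 35.8, 82.9, 40.9 and 49.2 FPKM in wild type. Protein kinases of the same family went opposite ways. CIPK9 (AT1G01140) had a loss of -0.431 and CIPK1 (AT3G17510) a gain of 0.57 in that table, both being kinases that act with calcium sensors of the CBL family. CIPK9 expression rose (log2 change 0.48 ± 0.15 SE, limma adjusted p = 0.043) and CIPK1 expression fell (-0.41 ± 0.12, adjusted p = 0.039). The CIPK9 call ended without any single library except dcl1 replicate 1 (adjusted p = 0.0573 to 0.129), and the CIPK1 call without any except wild-type replicate 3 and dcl1 replicate 2 (0.0981 to 0.122).

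The largest loss was at a gene of jasmonate synthesis. OPCL1 (AT1G20510) encodes a peroxisomal CoA ligase of jasmonic acid synthesis. Its expression was 25.6, 26 and 26.5 FPKM in wild type and 69.4, 105 and 135 FPKM in dcl1, so every dcl1 library was above every wild-type library (log2 change 1.89 ± 0.21 SE, limma adjusted p = 0.001). Its peak (chromosome 1, 7103453 to 7103692, minus strand) had the largest loss of the set, -1.36 in the authors' deposited table. JAZ6 (AT1G72450), a repressor of jasmonate signalling, was at 29.2, 32.1 and 42.3 FPKM in wild type and 62.2, 98.8 and 81.6 FPKM in dcl1, without overlap (log2 change 1.2 ± 0.19 SE, limma adjusted p = 0.0041). The JAZ6 peak (chromosome 1, 27274093 to 27274446) was lost by -0.601 in that table. Response to jasmonic acid held only 4 peaks in all, and the other 3 were gained.

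Among the single genes with large losses were GILP, SYP121 and VPS2.1, although the plasma membrane list (170 of 218 gained) lay near the whole set and vesicle-mediated transport also held gains, such as 0.393 at SYP51 and 0.279 at SAR1B in the authors' deposited table. GILP (AT5G13190), annotated to the plasma membrane, was at 20.1, 19.3 and 23.9 FPKM in wild type and 40.2, 60.8 and 66.3 FPKM in dcl1 (log2 change 1.34 ± 0.18 SE, limma adjusted p = 0.0023). Its peak (chromosome 5, 4204816 to 4205212) had a loss of -1.15 in the authors' deposited table. SYP121 (AT3G11820), a syntaxin of the plasma membrane known for resistance to powdery mildew, rose from 22.7 ± 2.5 to 48.4 ± 8.52 FPKM (SD, n = 3 each, limma adjusted p = 0.0019). A 62-base peak at its end was lost by -0.662 in that table. VPS2.1 (AT2G06530), an ESCRT-III subunit of endosomal sorting, rose from 37.7 to 73.0 FPKM (limma adjusted p = 0.0014) beside a loss of -0.655 in the authors' deposited table. All 3 hosts had higher values in every dcl1 library than in any wild-type library.

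Other large losses were found at genes of unknown or general function. AT1G78070, a WD40-repeat protein, had a loss of -0.922 and AT4G21570, of unknown function, one of -0.84 in the authors' deposited table. Both hosts rose (log2 change 0.65 ± 0.16 SE, limma adjusted p = 0.023, and 0.60 ± 0.11 SE, adjusted p = 0.0079), although the AT1G78070 call ended without dcl1 replicate 2 or 3 (adjusted p = 0.0618 and 0.061). AT3G14200, a DnaJ-domain chaperone, had a loss of -0.813 there, with host values of 31.8, 26.1 and 11.4 FPKM in wild type and 32.8, 44.3 and 54.6 FPKM in dcl1. Its groups did not overlap, but the spread in wild type was wide and the change did not pass the test (limma adjusted p = 0.073). A pair of losses without a rise of the host missed a deposited FDR of 0.05 (log10 FDR -1.2 at AFO and -1.26 at SDH3-2 in the authors' deposited table). The peak at AFO (AT2G45190), a YABBY transcription factor of abaxial leaf identity, was lost by -0.597 in the authors' deposited table while its host fell from 21.6, 20.8 and 25.3 to 16.1, 15.8 and 13.7 FPKM (limma adjusted p = 0.0071). SDH3-2 (AT4G32210), a subunit of succinate dehydrogenase, had a loss of -0.621 there without a call on its host (54.3 and 50.4 FPKM, adjusted p = 0.23).

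The largest gain, 1.07 in the authors' deposited table, was at AT5G36790 (chromosome 5, 14480873 to 14481684, minus strand), annotated as a haloacid dehalogenase-like hydrolase. Its expression was 130.0, 137 and 134 FPKM in wild type and 106, 119 and 105 FPKM in dcl1 (log2 change -0.28 ± 0.07 SE, limma adjusted p = 0.020), a call that ended without any single library except wild-type replicate 3 and dcl1 replicate 2 (adjusted p = 0.0527 to 0.0739). This gene has a near-identical copy in the genome, and both its peak and its FPKM are uncertain for that reason. ARR7 (AT1G19050), a type-A response regulator that dampens cytokinin signalling, was at 45.5, 48.2 and 53.4 FPKM in wild type and 22.0, 19.2 and 17.7 FPKM in dcl1. Every dcl1 library was lower (log2 change -1.28 ± 0.10 SE, limma adjusted p = 2.4e-04), and the ARR7 peak (chromosome 1, 6577832 to 6577952) was gained by 1.02 in the authors' deposited table. LHCB4.3 fell from 52.2, 46.9 and 36.6 to 17.4, 22.8 and 16.4 FPKM (log2 change -1.22 ± 0.16 SE, limma adjusted p = 0.0019), again without overlap.

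AT1G05870, of unknown function, and AT5G52810, an NAD(P)-binding protein, had gains of 0.973 and 0.861 in the authors' deposited table. The hosts fell from 26.2 to 13.3 FPKM (limma adjusted p = 0.013) and from 20.3 to 11.2 FPKM (adjusted p = 0.0015). The AT1G05870 call ended without wild-type replicate 2 (adjusted p = 0.0546). JAL23 (AT2G39330), a jacalin-related lectin, was the exception among the large gains. It rose from 28.2, 25.3 and 40.2 to 45.3, 77.2 and 64.1 FPKM (log2 change 0.96 ± 0.22 SE, limma adjusted p = 0.017), and its 92-base peak was gained by 0.812 in that table. Its call ended when wild-type replicate 1 or 2 or dcl1 replicate 3 was left out (adjusted p = 0.0606, 0.0676 and 0.0527).

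**Figure D4:**
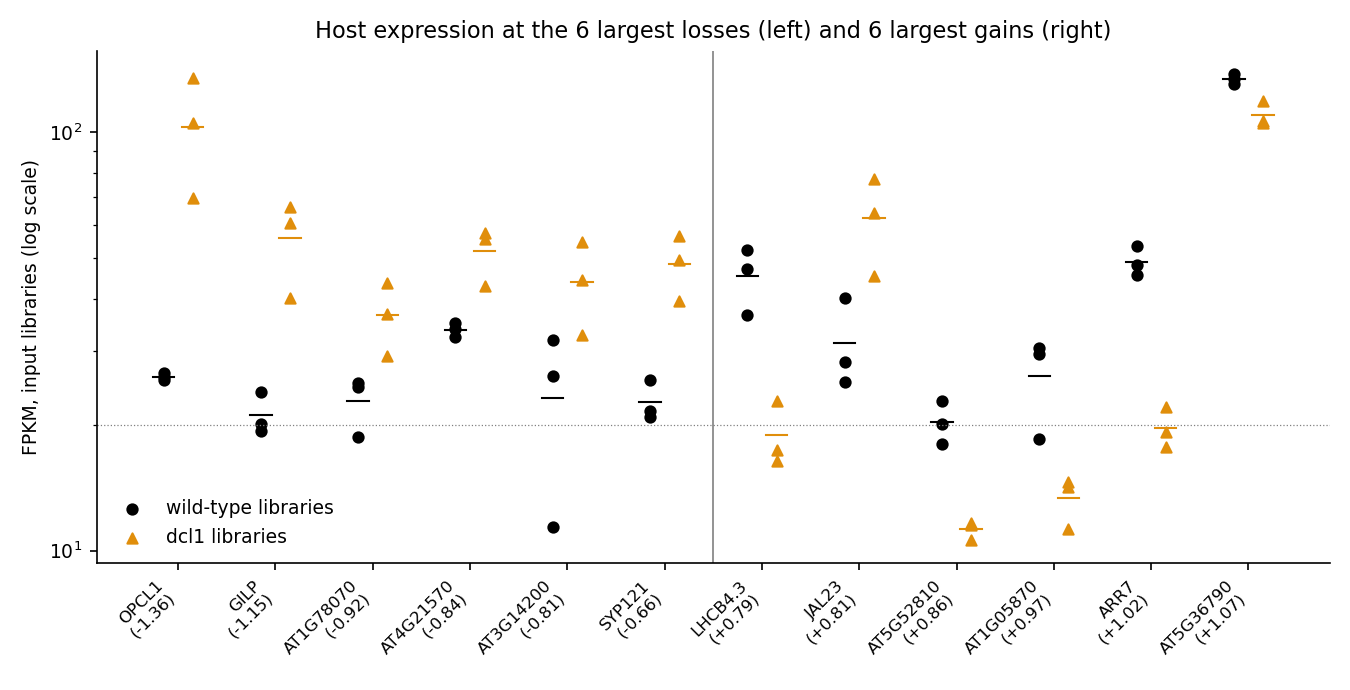
FPKM of the hosts of the 6 largest losses (left of the line) and 6 largest gains (right) in each input library, on a log axis, with black circles for wild type, orange triangles for dcl1, short lines for the means of 3 libraries, a dotted line at 20 FPKM and the deposited log2 change of the peak in brackets. The dcl1 libraries lie above the wild-type libraries for all 6 losses and for JAL23, and below them for the other 5 gains.

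Across all hosts, more genes fell than rose, as among all genes of their level. Of the 860 hosts, all of which were tested, 112 rose (13.0%), 234 fell (27.2%) and 514 did not pass the test. The share called was 40.2%, against 30.6% of all 17925 tested genes, of which 17.8% rose and 12.8% fell. Among the 4571 tested genes with at least 20 FPKM in wild type, 14.6% rose and 24.3% fell, and the share called was 38.6% in the 3711 of them that host no peak of the set. Called falls of at least 2-fold were seen in 5 of the 860 hosts and called rises of at least 2-fold in 8. Among the 4571 tested genes of at least 20 FPKM they numbered 76 and 92, and among all 17925 tested genes 219 and 749. Wild-type and dcl1 libraries stood apart, without overlap, in 547 hosts (63.6%), in 57.4% of all tested genes of at least 20 FPKM, in 55.9% of those that host no peak of the set, and in 48.4% of all tested genes.

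Those counts depended on the libraries and on the rule. Without wild-type replicate 1 or 2, 194 or 196 hosts were called in place of 346, and 3226 or 3205 of all genes in place of 5480. The wild-type input libraries chose both the hosts and the genes of their level. The same libraries are a side of the expression test, so the split into falls and rises depends on that choice. When hosts were chosen by a dcl1 level of at least 20 FPKM, an alternative added after the data were seen, 195 rose and 210 fell. Under quantile normalization the median of all tested genes moved from 0.03 to -0.06 on the log2 scale, and the share of rises among the called hosts moved from 32.4% to 25.4%, and among all called genes from 58.2% to 40.0%.

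Hosts of gained and of lost peaks had different expression calls. Among 657 hosts with gained peaks only, 222 fell (33.8%) and 40 rose (6.09%). Among 203 hosts with lost peaks only, 72 rose (35.5%) and 12 fell (5.91%). Read the other way, of the 238 peaks in hosts that fell, 95.0% were gained in the authors' deposited table, as were 76.9% of the 515 peaks in hosts without a call and 35.7% of the 112 peaks in hosts that rose. Within the narrow range of 20 to 50 FPKM the shares were 87.5% of 80, 66.3% of 291 and 24.7% of 77. If the deposited log2 change was taken relative to input, the peak change and the host change share the same 6 input libraries, so the values are set side by side without a test of their relation.

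**Figure D5:**
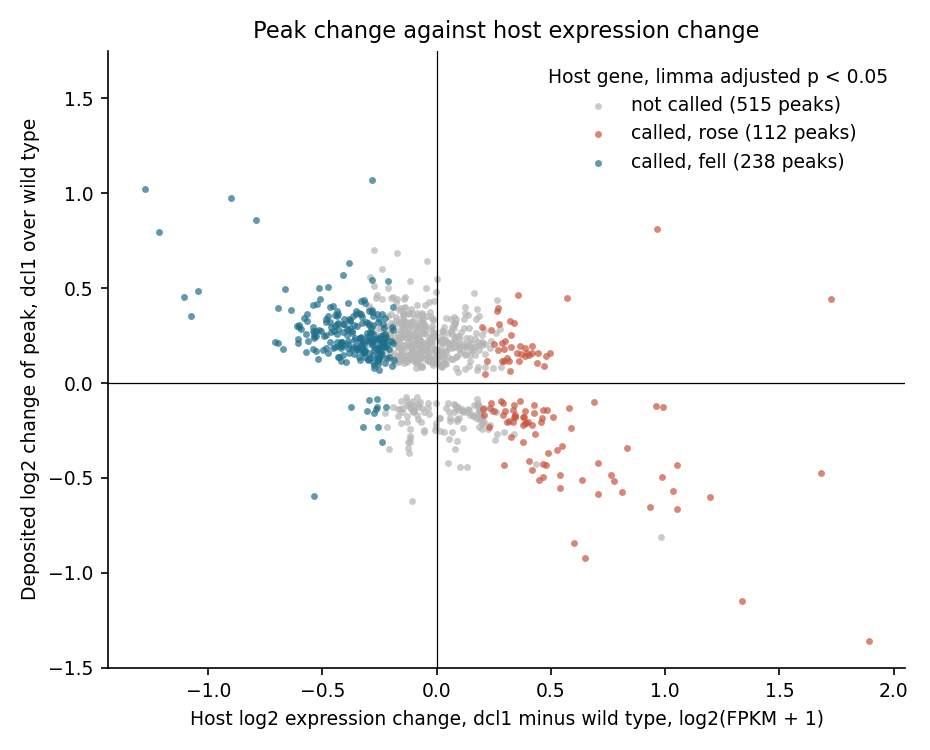
Log2 change of each of the 865 peaks in the authors' deposited table (vertical axis) against the log2 expression change of its host, dcl1 minus wild type on log2(FPKM + 1) (horizontal axis). Blue points are peaks in hosts that fell, red points in hosts that rose (limma adjusted p under 0.05) and grey points in hosts without a call, and the upper left holds 226 of the 238 blue points.

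Besides OPCL1, GILP and JAZ6, the largest rises among called hosts were at P5CS1 and AT3G28500, and BAM1 and BZIP60 are given as further hosts with lost peaks. P5CS1 (AT2G39800), the enzyme of stress-induced proline synthesis, rose from 23.6, 22.4 and 30.0 to 81.4, 87.2 and 80.6 FPKM (log2 change 1.68 ± 0.11 SE, limma adjusted p = 1.3e-04), with a peak lost by -0.476 in the authors' deposited table. AT3G28500, of the 60S acidic ribosomal protein family, rose from 22.5, 17.0 and 25.1 to 64.3, 81.3 and 73.0 FPKM (log2 change 1.72 ± 0.15 SE, limma adjusted p = 3.5e-04). Its peak was gained by 0.442 in that table, so both of its values went up, though it has close copies. BAM1 (AT3G23920), a beta-amylase of chloroplast starch breakdown, rose from 30.9 to 64.7 FPKM (limma adjusted p = 8.9e-04), and its peak was lost by -0.571 in the authors' deposited table. BZIP60 (AT1G42990), a transcription factor of the unfolded protein response, rose from 27.0 to 48.5 FPKM (adjusted p = 0.0037) beside a loss of -0.575 there.

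After ARR7 and LHCB4.3, the next largest falls among called hosts were at FUM2, DiT1 and AT5G38510. FUM2 (AT5G50950), the cytosolic fumarase, went from 45.3, 52.2 and 56.5 to 24.4, 20.9 and 24.5 FPKM (log2 change -1.11 ± 0.10 SE, limma adjusted p = 5.2e-04). DiT1 (AT5G12860), the dicarboxylate transporter of the chloroplast envelope, went from 189, 208 and 169 to 87.9, 87.9 and 90.1 FPKM (log2 change -1.08 ± 0.08 SE, limma adjusted p = 2.4e-04). AT5G38510, a rhomboid-related protease, went from 23.2 to 10.7 FPKM (adjusted p = 2.4e-04). None of these groups overlapped, and the peaks of FUM2, DiT1 and AT5G38510 were gained by 0.452, 0.353 and 0.485 in the authors' deposited table.

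Strong hosts with lost peaks were rare, and they are named here after their values were seen. Of 250 peaks with hosts above 100 FPKM, 10 were lost in the authors' deposited table. The hosts of 6 of them rose, among them ARFA1E (AT3G62290), a small GTPase of the ARF family, from 160 to 317 FPKM (log2 change 0.99, limma adjusted p = 8.2e-04, peak change -0.125 in that table), and UBC28 (AT1G64230), a ubiquitin-conjugating enzyme, from 123 to 198 FPKM (0.69, adjusted p = 8.6e-04, peak change -0.102). AT2G45820 had the largest of these losses, -0.43 in the authors' deposited table, with a rise from 115 to 239 FPKM (log2 change 1.05, limma adjusted p = 0.001). The other 4 hosts did not pass the test. They include CLPC1 (AT5G50920), a chaperone subunit of the chloroplast Clp protease, which at 285 FPKM was the strongest host of a lost peak (peak change -0.169 in that table, host adjusted p = 0.12). Under quantile normalization CLPC1 did pass, as a rise (log2 change 0.211, limma adjusted p = 0.0462).

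The authors assigned 370 of the 865 peaks (42.8%) to another gene than the one they overlap. Of those assigned genes 332 were in the expression table, all on the same strand as the host, at a median gap of 426 bases and at most 6989 bases from the peak. The FPKM of wild-type replicate 1 printed with those peaks was that of the assigned gene in all 332. The other replicates were not compared. The assigned genes had a median of 6.32 FPKM in wild type and the overlapped hosts a median of 45.5 FPKM. The assigned gene was the weaker in 299 cases, and 81 of the assigned genes were too low to be tested. Of the other 251, 129 had another expression call than the host. OPCL1, JAZ6, LHCB4.3, P5CS1 and LHCA1 are all found in the deposited table under another gene. Peaks assigned to their host were gained in 78.0% of 495 cases and peaks assigned elsewhere in 74.6% of 370.

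Among the 5 hosts with a pair of peaks, all 10 peaks were gained in the authors' deposited table. The pairs of ARASP (AT2G32480), a protease gene, and PSAH-1 (AT3G16140), a subunit of photosystem I, shared 231 and 267 bases and were listed under different assigned genes. Their changes were 0.294 and 0.304 for ARASP and 0.203 and 0.171 for PSAH-1 in that table. These pairs describe 1 stretch each and are not independent. GAPB, AT5G60390 and AT5G59613 carried separate peaks.

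The m6A machinery itself was not among the hosts, which the rule fixed in advance for most of these genes. Only ECT2 (82.0 FPKM in wild type) and ECT3 (56.5 FPKM) reached 20 FPKM. Elsewhere in the authors' deposited table, 1 peak each was counted for MTB, VIR, HIZ1, HIZ2, ALKBH9C, ECT6 and ECT8. Of 8 tested writer genes, 1 rose and none fell. It was HIZ1 (AT1G32360), a zinc finger partner of the writer complex, at 10.6, 9.93 and 13.2 FPKM in wild type and 14.7, 14.1 and 15.8 FPKM in dcl1 (log2 change 0.38 ± 0.11 SE, limma adjusted p = 0.036), a call that ended without any single library except wild-type replicate 3 (adjusted p = 0.0635 to 0.114). MTA and MTB did not pass the test (adjusted p = 0.43 and 0.27). Of 5 erasers, 3 were tested and 2 fell. ALKBH10B (AT4G02940), a demethylase known for its role in flowering, went from 17.2, 15.5 and 14.4 to 11.9, 11.7 and 9.91 FPKM (log2 change -0.46 ± 0.10 SE, limma adjusted p = 0.013, and 0.0513 without wild-type replicate 1), and ALKBH9C (AT4G36090) from 5.49 to 3.92 FPKM (adjusted p = 0.014). Among 13 tested readers, ECT9 rose (3.63 to 4.71 FPKM, limma adjusted p = 0.049) and ECT7 fell (15.2 to 12.2 FPKM, adjusted p = 0.025). Without single libraries these calls ended too, for ECT9 without any except wild-type replicate 1 (adjusted p = 0.0894 to 0.131) and for ECT7 without any except wild-type replicate 3 and dcl1 replicate 1 (0.0573 to 0.0893). The summed level of the readers was 226 to 241 FPKM in wild type and 229 to 238 FPKM in dcl1, which overlapped.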

How the data were processed

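Input RNA-seq and m6A MeRIP-seq of wild type and dcl1 were analysed from 2 deposited tables. The submitters' processing notes name TAIR10 as the build and ChIPseeker, HOMER, edgeR, StringTie, HISAT2 and fastp as tools, without versions or roles. The authors deposited FPKM of 24730 genes in 6 input libraries, per the file headers. Their peak table holds, per the file headers, a log2 change, a p-value and a score, the log10 of the FDR. Single immunoprecipitate libraries were not used here.

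Hosts were tested with limma 3.58.1 in R 4.3.3 (eBayes, trend = TRUE) on log2(FPKM + 1), for genes averaging at least 1 FPKM, two-sided, with Benjamini-Hochberg adjustment over 17925 genes and a threshold of 0.05. Fold changes of low genes are understated by the added 1 FPKM. On simulated data for dcl1 against wild type (17925 genes), recovery was 92% for 2-fold changes and 97% for 4-fold changes (100 genes each), and 2.58% of calls were false. The simulated noise was normal and independent between libraries, no weakly expressed gene was changed, and no change was below 2-fold. These rates therefore do not cover the smaller changes that most called hosts had. Replicates are called biological in the series design.

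The peaks and the lists were chosen with earlier results of these data known, and the Gene Ontology terms that make up each list were spelled out after the terms in the table had been seen. Named were the 6 largest gains and losses with a deposited FDR under 0.05, hosts with a pair of peaks, the 5 highest hosts, the 5 largest rises and falls in called hosts whose libraries did not overlap, up to 2 gains and 2 losses per list, the host just inside the threshold, and DCL1. The text prints those that its groups turn on, and adds m6A genes and strong hosts of lost peaks. Symbols came from RefSeq (TAIR10.1, names only, all 860 hosts matched, 473 with a symbol). Coordinates are printed on TAIR10, as deposited. Starts and ends were read as 1-based for peaks and genes alike, which was not tested for the peaks. No sequence is printed. Same-numbered libraries deviated together at r = 0.085, 0.061 and 0.150, and differently numbered ones at r = -0.172 to 0.116. A weak pairing is not excluded by these values. The main fit did not pair the samples by number, and a fit with a replicate block is given below. Whether reads were counted by strand is not stated.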

Additional observations from a re-analysis of the deposited data

How the results depend on the processing

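A total of 132 genes were recomputed (named hosts, m6A genes, strong hosts of lost peaks and DCL1). No change that was called, in the main fit or in the other setting, reversed its sign between them. Changes of sign in genes without a call were not counted. Of the 132 genes, 62 were called, 39 of them in every setting, and 23 lost the call when a library was left out. With single libraries left out, the count of called genes ran from 3205 to 5663 (5480 with all), of called hosts from 194 to 344 (346), of hosts that rose from 59 to 130 (112) and of hosts that fell from 133 to 214 (234). Hosts of gained peaks that fell ran from 128 to 207 (222) and that rose from 18 to 48 (40), and hosts of lost peaks that rose from 41 to 82 (72) and that fell from 4 to 7 (12). Hosts of lost peaks that fell numbered 28 under quantile normalization, and hosts that rose numbered 195 when chosen by dcl1 level, both with causes not tested.

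A host minimum of 10 FPKM gave 1445 peaks with 474 lost and 67.2% gained, and in the authors' deposited table median changes of 0.239 and -0.2075. A minimum of 50 FPKM gave 417 peaks, 380 gained and 37 lost (91.1% gained), with a median loss of -0.155. By dcl1 level 70.1% of peaks were gained (median loss -0.207), and by the mean of all 6 libraries, added after seeing the data, 73.2% (median loss -0.203). Where the assigned gene had to be the host, 495 peaks remained, 386 gained and 109 lost, with a median loss of -0.186. These settings choose other peaks by construction. The fit with a replicate block called 306 hosts and 5138 genes and, since the samples share only a number, is given only here. It ended the call of 6 of the genes, among them PSAL, AT1G07920 and ECT9, and added that of GAPB. Pseudocounts of 0.1 and 5 FPKM, other FPKM minimums and median-ratio scaling kept every count of called genes within 1.5 times. Depth is unknown, so no limit from depth can be given.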
